A study of Homo sapiens and Mus musculus with 76 samples.

Results

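The comparison described here set 8 single HEK293T cells prepared with a version of Smart-Seq2 labelled variant 2 against 7 single HEK293T cells prepared with Smart-Seq2 itself. The cells were chosen by their protocol label, and the 15 libraries are part of a series of 76. The series profiled single cells and small inputs of cells and RNA with Smart-Seq2, several of its variants and standard SMART-Seq. GEO's labels do not say which step variant 2 alters. HEK293T is a cell line derived from human embryonic kidney that carries the large T antigen of SV40. Both groups consist of cells of this line, and their source labels name no treatment. The labels name no culture, plate or day for the cells, so each protocol counts as 1 sample here, no test between the protocols was made, and all differences below are descriptions of these 15 libraries. Cells are numbered within a protocol in accession order, and that number only names a cell.

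Smart-Seq2 copies polyadenylated RNA of a single cell with an oligo-dT primer, and the reverse transcriptase adds a few untemplated bases at the end of the copy, to which a template-switching oligo anneals. The copy then carries a known sequence at both ends and is amplified by PCR before fragments of it are sequenced along its whole length. A transcript present in few copies is caught in some cells and missed in others, so levels of single cells spread even within a protocol.

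The 8 variant 2 cells had between 5.34 and 11.01 M reads on genes (M, 1000000 reads), with a median of 8.08 M, and the 7 Smart-Seq2 cells had between 5.29 and 16.6 M, with a median of 11.7 M. After each cell was thinned to 5 M reads, variant 2 cells had a read in 9887 to 12378 genes, with a median of 11774.5, and Smart-Seq2 cells in 10213 to 12360 genes, with a median of 11783. The medians lay 8.5 genes apart, which is small beside the SD of 812 and 709 genes between cells. Variant 1 cells had a median of 11738.5 genes and variant 4 cells one of 11002. The cells with the fewest genes were variant 2 cell 3, with 9887, and Smart-Seq2 cell 2, with 10213, and these also had the largest shares of their reads in their 100 most abundant genes, 31.8% and 31.9%, beside group medians of 21.2% and 19.7%. The lists of B cell, T cell, macrophage, endothelial and epithelial markers had no member at 10 CPM (counts per 1000000 reads on genes) or more on average over the groups. Without a read in any of the 15 cells were 2 of 13 B cell, 7 of 11 T cell and 5 of 11 macrophage genes. The same held for 2 of 8 endothelial and 2 of 10 epithelial genes. MS4A1, CD3D, CD3E, LYZ, TYROBP and KRT5 were among these genes, and the other members had reads. List sums reached 32.7 (B cell), 9.99 (T cell), 23.2 (macrophage) and 41.5 CPM (endothelial) in single variant 2 cells. The epithelial sum reached 82.9 CPM in Smart-Seq2 cell 5. KRT8 and KRT18, keratins of simple epithelia, were not in that list but in the one of kidney and neural genes. KRT8 was at 109 CPM in the summed variant 2 cells and 24.5 CPM in the summed Smart-Seq2 cells. Of 17 matrix genes of fibroblasts 5 averaged at least 10 CPM. Their list sum was 225 to 352 CPM in variant 2 cells and 173 to 721 CPM in Smart-Seq2 cells. Of 22 kidney and neural genes known from this line 16 averaged at least 10 CPM. The other 6 did not, and 1 had no read in any of the 15 cells. Among the 22, VIM, an intermediate filament protein, was read in all cells, at 379 to 2436 CPM with variant 2 and 301 to 1215 CPM with Smart-Seq2. NEFL, a neurofilament subunit, was at 14.4 to 257 and 0.189 to 239 CPM.

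**Figure D1:**
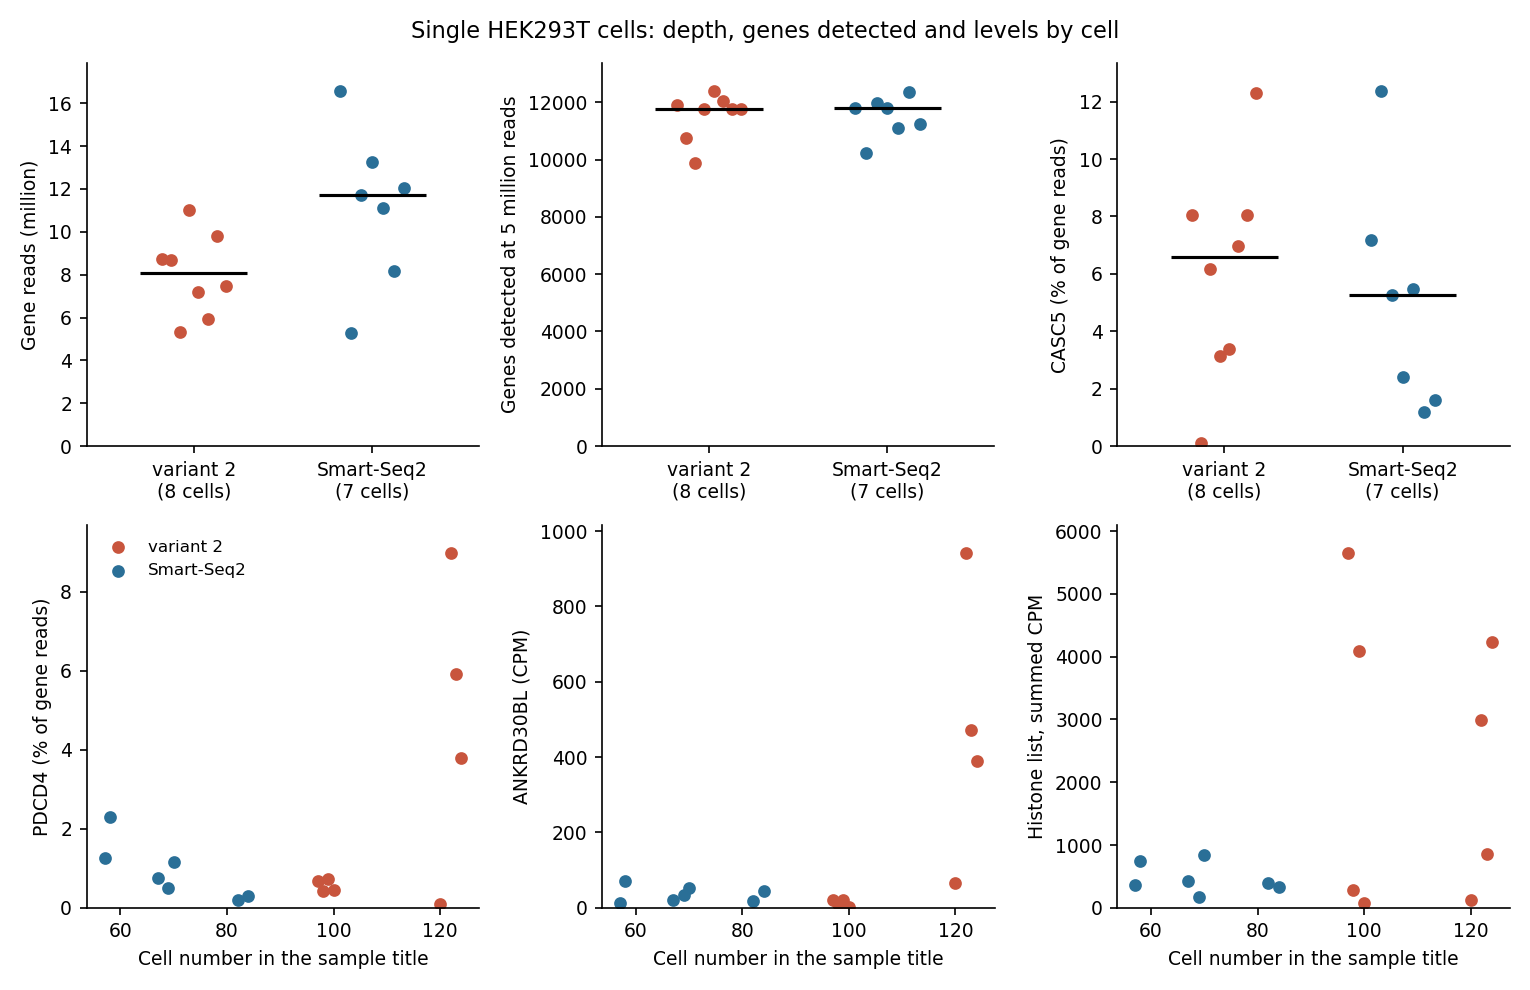
Upper panels give, for each variant 2 cell (8, red) and Smart-Seq2 cell (7, blue), gene reads in M (1000000), genes with a read after thinning to 5 M reads and the percentage of gene reads on CASC5, with black bars at group medians. Lower panels give PDCD4 as a percentage of gene reads, ANKRD30BL in CPM and the summed CPM of the histone list against the cell number in the sample title. Genes detected overlap almost wholly, while PDCD4 and ANKRD30BL are high in 3 of the 4 variant 2 cells titled HEK_120 to HEK_124.

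Most genes were at the same level with both protocols within 2-fold. Reads were summed over the cells of a protocol and given as CPM, and the log2 ratio of variant 2 over Smart-Seq2 was taken after adding 1 CPM to both. Of 9097 genes with a mean of at least 10 CPM over the groups, 7951 (87.4%) were within 2-fold, 452 (4.97%) were at least 2-fold higher with variant 2 and 694 (7.63%) at least 2-fold lower. The median log2 ratio was -0.03 and the interquartile range ran from -0.40 to 0.31. At 4-fold or more, 46 genes were higher and 89 lower. Set in the same way against the summed variant 1 cells, variant 2 had 272 of 9053 genes (3%) at least 2-fold higher and 312 (3.45%) lower, and against variant 4 it had 644 of 9160 genes (7.03%) higher and 872 (9.52%) lower. These 3 comparisons share the variant 2 cells, and the differences between the shares were not tested. Variant 2 cells correlated with each other across 9871 genes with a median rank correlation of 0.741, Smart-Seq2 cells with each other with 0.743 and cells of different protocols with 0.728, values that share libraries and depth. The summed cells correlated with each other at 0.925, and with the mean of 3 pools of 100 HEK293T cells at 0.845 for variant 2 and 0.841 for Smart-Seq2.

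**Figure D2:**
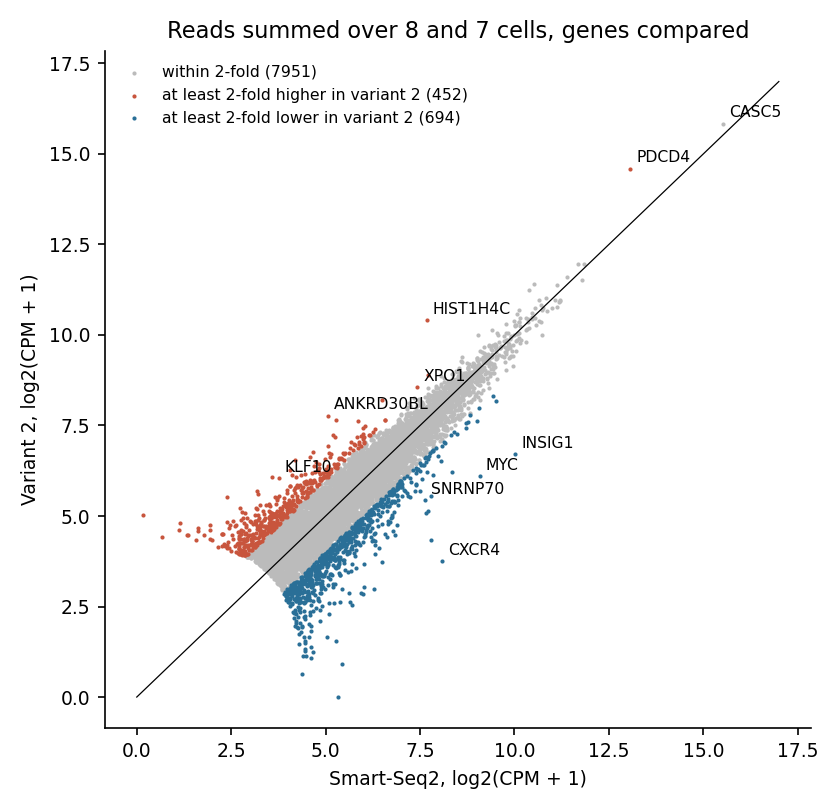
Each point is one of the 9097 genes compared, placed by its level in the summed Smart-Seq2 cells and in the summed variant 2 cells, both as log2(CPM + 1). Genes at least 2-fold higher with variant 2 (452) are red, genes at least 2-fold lower (694) are blue, and most points lie along the line of equal level.

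The clearest differences were in genes whose cells did not overlap between the protocols. In 11 genes (0.121% of those compared) every variant 2 cell was below every Smart-Seq2 cell, and in 2 genes (0.022%) every variant 2 cell was above. SNRNP70, a protein of the U1 small nuclear ribonucleoprotein that marks 5′ splice sites, was at 16.1 to 104 CPM in variant 2 cells, with a median of 37.3, and at 129 to 286 CPM in Smart-Seq2 cells, with a median of 178. Its summed level was 42.2 CPM (exact 95% Poisson interval 40.6 to 43.8) against 197 CPM (194 to 200), a log2 ratio of -2.19. These intervals, like all those below, cover counting error only, since the libraries were made by PCR without molecular identifiers.

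PNPLA2, the triglyceride lipase of lipid droplets, was at 10.9 to 80.3 CPM (median 40.1) against 112 to 303 CPM (median 150), a log2 ratio of -1.72. GLTSCR2, a nucleolar protein of ribosome assembly, was at 6.02 to 27.3 CPM (median 17.1) against 45.2 to 130 CPM (median 68.7), a log2 ratio of -2.11. PTMS, encoding parathymosin, was at 6.79 to 41.6 CPM (median 21.6) against 46.0 to 164 CPM (median 79.3), a log2 ratio of -1.76. In each of these genes the highest variant 2 cell stayed short of the lowest Smart-Seq2 cell, although Smart-Seq2 cell 2, one of the libraries that stands apart, held the highest value of PNPLA2 and PTMS. UBE2S, the ubiquitin-conjugating enzyme that extends chains for the anaphase-promoting complex, had a log2 ratio of -2.40, and of -1.86 without Smart-Seq2 cell 2. It was at 0.187 to 5.50 CPM (median 3.05) against 6.49 to 110 CPM (median 12.99). The 110 CPM was that of Smart-Seq2 cell 2, and the next highest Smart-Seq2 cell held 23.9 CPM. OAF had the largest ratio of the 11, -3.71, with 0 to 5.81 CPM (median 0.323) against 7.38 to 89.0 CPM (median 16.1). C19orf43 (-1.79) and FAM189B (-1.74) followed the same order. RNPEP, an aminopeptidase, RAB4A, a small GTPase of recycling endosomes, and SRP68, a protein of the signal recognition particle, completed the 11 with smaller gaps, at log2 ratios of -1.45, -1.21 and -0.88. Those 3 fall outside the rule for named genes and are named to complete the count.

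GC content played no part in choosing the 11 genes. For 10 of them a transcript could be matched, and its GC content ran from 39.3% to 65.8% with a median of 62.5%, beside a median of 47.1% over all genes compared. RAB4A was the low end, under the median of all genes, and 6 of the 10 were in the highest of 5 equal groups of genes by GC content. Their levels in other libraries, which the choice did not use, were not all on one side. Summed over the 8 variant 1 cells, 9 of the 11 genes were under the lowest Smart-Seq2 cell. Summed over the 6 variant 4 cells, 10 of the 11 were over the highest variant 2 cell. The numbers in the sample titles of variant 1 cells lie between those of variant 2 cells. Those of variant 4 cells lie beside or among those of Smart-Seq2 cells. These counts thus go with title number as well as with protocol, and the part of either was not tested. SNRNP70 was at 58.6 CPM with variant 1, 183 CPM with variant 4 and 16.97 ± 3.53 CPM (SD, n = 3) in pools of 100 cells. GLTSCR2 was at 29.6, 100.5 and 25.3 ± 4.22 CPM (SD, n = 3) in these libraries, and PNPLA2 at 50.4, 67.1 and 11.2 ± 7.44 CPM (SD, n = 3). Of the 11 genes, 7 were under the lowest Smart-Seq2 cell in the mean of these pools and 4 over the highest variant 2 cell. C19orf43, at 102.01 ± 23.6 CPM (SD, n = 3) in pools, was one of the 4 and within the range of the Smart-Seq2 cells.

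XPO1, the receptor that exports proteins with a leucine-rich signal from the nucleus, was the gene with separate ranges that differed most in the other direction. It was at 280 to 501 CPM (median 375) in variant 2 cells and 110 to 272 CPM (median 157) in Smart-Seq2 cells, a log2 ratio of 1.14, so that the lowest variant 2 cell was just above the highest Smart-Seq2 cell. Variant 1 held 347 CPM, variant 4 held 257 CPM and pools of 100 cells 254 ± 91.4 CPM (SD, n = 3). TMEM14B was at 82.3 to 145 CPM against 56.2 to 77.4 CPM, a log2 ratio of 0.57.

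**Figure D3:**
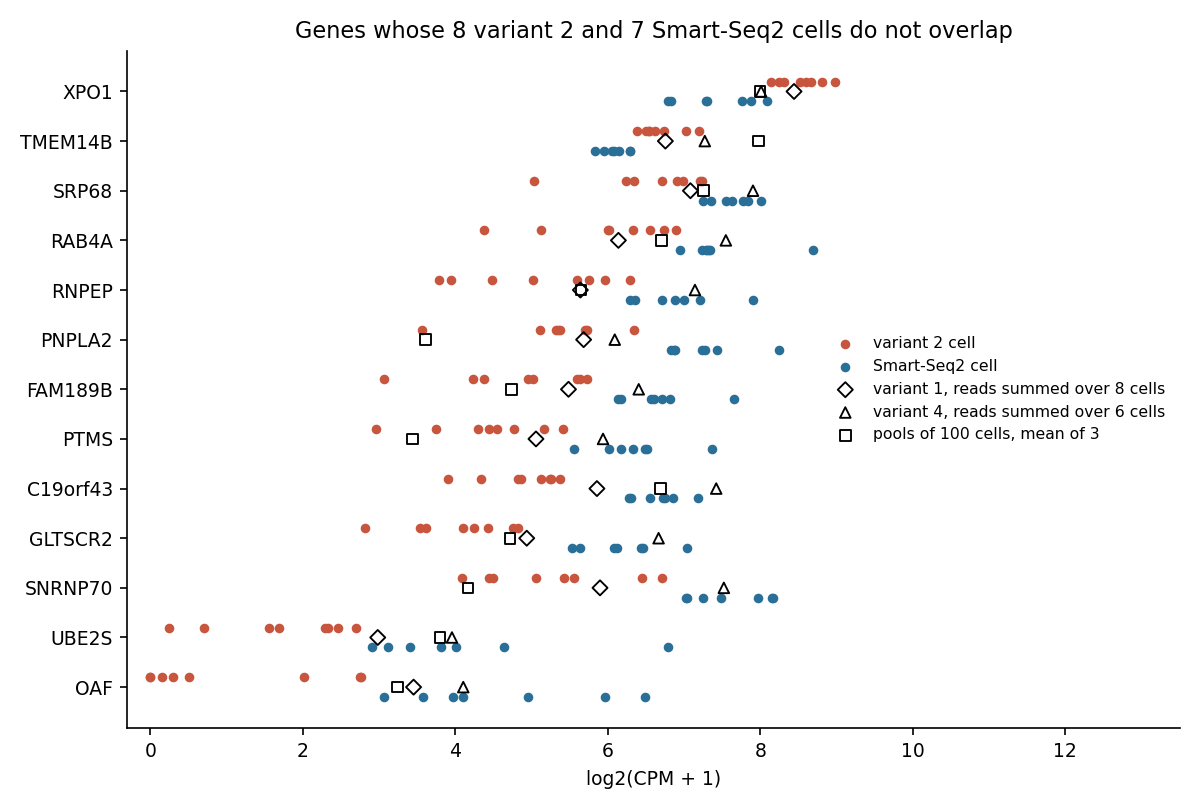
The 13 genes in which variant 2 cells (8, red) and Smart-Seq2 cells (7, blue) do not overlap, as log2(CPM + 1) of each cell, with open symbols for variant 1 (diamonds), variant 4 (triangles) and the mean of 3 pools of 100 cells (squares). In 11 genes the red points lie wholly to the left of the blue ones, and the diamonds lie left of all blue points in 9 of these.

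Over all genes, GC content and length went with small differences between the protocols. Genes were split into 5 equal groups by GC content and by length. In the group with the highest GC content the median log2 ratio was -0.12, and 11.2% of genes were at least 2-fold lower with variant 2, against -0.00 and 5.68% in the group with the lowest. In the group with the longest transcripts the median was 0.07 and 8.61% of genes were at least 2-fold higher, against -0.07 and 2.26% in that with the shortest. The rank correlation with the ratio across 9057 genes was -0.07 for GC content and 0.11 for length, which are descriptions of genes that are not independent. Single cells differed within each protocol: the median of the group with the highest GC content less that of the lowest, relative to the mean of all cells, ran from -0.44 in variant 2 cell 7 to 0.66 in variant 2 cell 6, and from -0.62 to 0.27 in Smart-Seq2 cells. These ranges of single cells and a ratio of summed cells are unlike measures, since summing evens out the cells.

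Of 44 genes found in the files from a list of long transcripts, all compared, 6 were at least 2-fold higher with variant 2 and 1 was lower, beside 4.97% and 7.63% of all genes, with a median log2 ratio of 0.41 beside -0.03 over all genes. ATM, the kinase that signals DNA double-strand breaks, was at 16.6 to 138 CPM (median 92.5) against 5.13 to 63.1 CPM (median 23.4), a log2 ratio of 1.499. NF1, the neurofibromin that switches RAS off, was at 87.5 to 223 CPM (median 142) against 21.7 to 148 CPM (median 86.3), a ratio of 1.17. FLNA, which crosslinks actin, was at 107.7 to 221 CPM (median 158) against 26.5 to 108.01 CPM (median 74.0), a ratio of 1.05. The lowest variant 2 cell was close to the highest Smart-Seq2 cell for FLNA, while the ranges of NF1 and ATM overlapped. The best-read long genes differed little: PRKDC, the catalytic subunit of DNA-dependent protein kinase, had a ratio of 0.10, and SRRM2, a splicing scaffold, 0.47. LRP1, an endocytic receptor, was lower at -1.07, but -0.48 without Smart-Seq2 cell 5.

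The genes of sterol synthesis and uptake were the list with the lowest median. Cells sense sterols in the endoplasmic reticulum, where INSIG1 holds back the transcription factors SREBF1 and SREBF2 when sterol is ample, and when it is scarce these factors raise the enzymes from HMGCS1 to the last steps of cholesterol synthesis. Of 24 list genes found in the files 23 were compared, and 10 were at least 2-fold lower with variant 2 and none higher, while 7.63% of all genes were that much lower. The median log2 ratio was -0.91, with 20 of the 23 below 0. The summed level of the list was 1824 to 2973 CPM in variant 2 cells, with a median of 2141, and 2279 to 7631 CPM in Smart-Seq2 cells, with a median of 4115. The lowest Smart-Seq2 value was that of cell 2, which stands apart, and the other 6 Smart-Seq2 cells were all above the highest variant 2 cell.

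INSIG1 was at 3.54 to 297 CPM in variant 2 cells (median 87.3) and at 63.96 to 3978 CPM in Smart-Seq2 cells (median 159). Its log2 ratio of -3.30 leaned on Smart-Seq2 cell 1, without which it was -1.25. IDI1, the isomerase that makes dimethylallyl diphosphate, was at 9.64 to 386 CPM (median 172) against 142 to 1381 CPM (median 339), a ratio of -1.38. FDFT1, which makes squalene, was at 18.9 to 336 CPM (median 170) against 153 to 678 CPM (median 408), a ratio of -1.18. SQLE, squalene epoxidase, was at 126 to 331 CPM (median 205) against 50.5 to 1162 CPM (median 335), a ratio of -1.03. These ranges overlapped, and in each gene the variant 2 median was below the Smart-Seq2 median.

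HMGCS1, the synthase of an early step, had a ratio of -1.46, and SREBF1 one of -1.83 at low levels, 5.08 against 20.6 CPM. MVD and TM7SF2, a decarboxylase and a sterol reductase of the pathway, had ratios of -1.26 and -1.23. Other members did not follow: EBP, a sterol isomerase, was at 0.19, NSDHL, a sterol dehydrogenase, at 0.60 and PMVK, phosphomevalonate kinase, at 0.76. Cells titled HEK_97 to HEK_100 and cells titled HEK_120 to HEK_124 were each set against the same Smart-Seq2 cells, and 11 of 23 genes were 2-fold lower in either set, with medians of -0.97 and -0.998, beside 9.1% and 11.2% of all genes lower and 5.4% and 8.3% higher. Variant 1 cells had a summed level of 1951 to 6524 CPM (median 3320), variant 4 cells 3585 to 6006 CPM (median 4757) and pools of 100 cells 4417 to 5129 CPM.

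**Figure D4:**
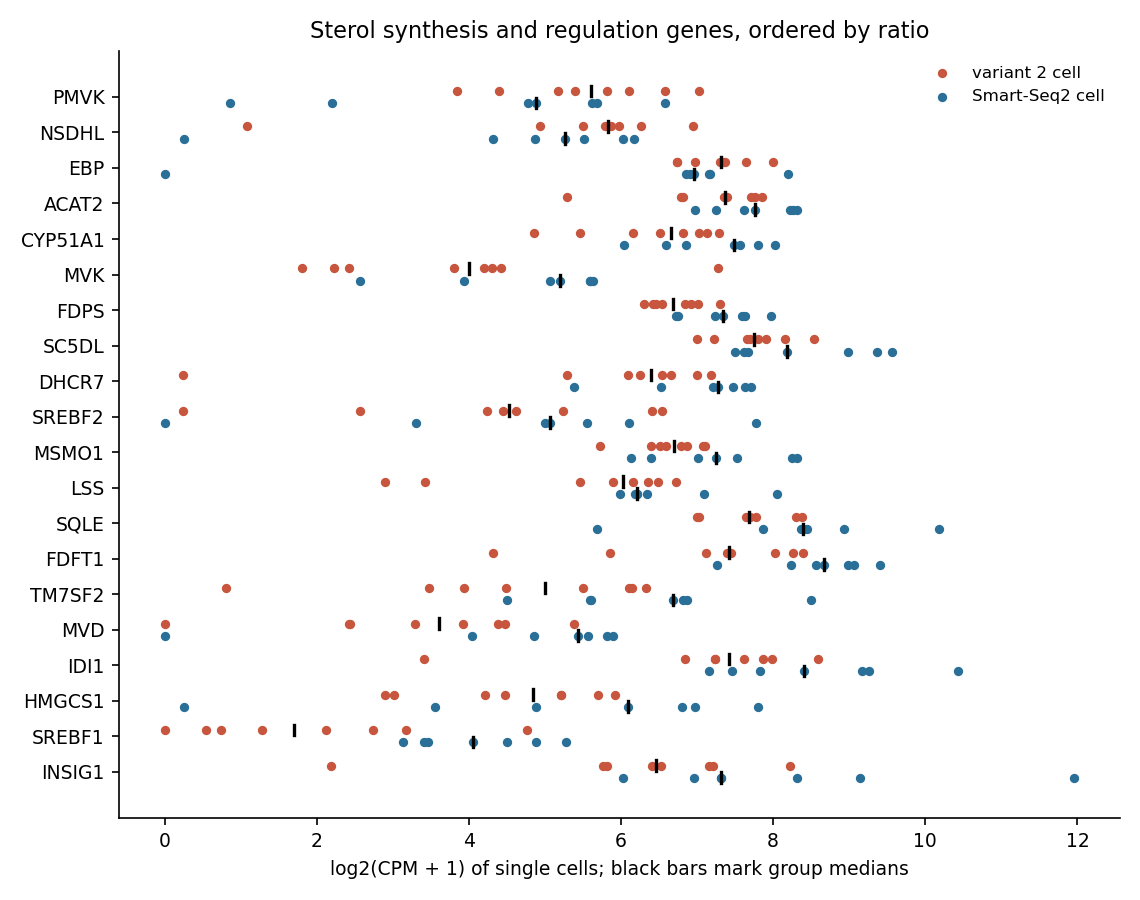
Shown are 20 of the 23 compared genes of sterol synthesis and regulation, ordered by log2 ratio, with each variant 2 cell (8, red) and Smart-Seq2 cell (7, blue) as log2(CPM + 1) and black bars at group medians. The red medians lie left of the blue ones in 17 of the 20, from ACAT2 downward, the ranges overlap in every gene shown, and single blue cells reach far to the right for INSIG1, IDI1 and SQLE.

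The second list with a low median held genes known to respond to ATF4, the transcription factor of the integrated stress response, which is made when amino acids are short or proteins misfold and which raises amino acid transporters and synthesis enzymes. Of 20 listed genes 17 were compared, 6 were at least 2-fold lower with variant 2 and none higher, beside 7.63% and 4.97% of all genes, and the median log2 ratio was -0.74, with 16 of 17 below 0. Summed levels were 1207 to 3105 CPM (median 1445) in variant 2 cells and 1037 to 4420 CPM (median 2503) in Smart-Seq2 cells, so the ranges overlapped. SLC7A5, the large neutral amino acid transporter, was at 0 to 93.9 CPM (median 41.7) against 0.757 to 597 CPM (median 95.8), a ratio of -2.22. ASNS, asparagine synthetase, was at 29.7 to 144 CPM (median 98.3) against 69.9 to 561 CPM (median 236), a ratio of -1.54. Stress genes outside this list did not all follow. ATF3, counted with the immediate early genes below, had a ratio of 2.04. Of 19 compared genes of a list for stress of the endoplasmic reticulum, 1 was at least 2-fold higher and 1 lower, beside the same shares of all genes. Their median was -0.11, with 8 above 0 and 11 below.

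SLC7A11, the cystine transporter, was at 0 to 105 CPM (median 0.236) against 0 to 203 CPM (median 51.1), a ratio of -2.29 that became -4.67 without variant 2 cell 2, the cell that held most of its reads. CHAC1, which degrades glutathione, had a ratio of -1.14 with medians of 0.226 and 0 CPM, so that a few cells of each protocol set it. STC2, a secreted glycoprotein, and CEBPB, a partner of ATF4, had ratios of -1.47 and -1.33. The best-read members were within 2-fold: SLC3A2, the heavy chain that pairs with both transporters, at -0.34, and PHGDH, the first enzyme of serine synthesis, at -0.72. In the cells titled HEK_97 to HEK_100, 9 of 17 genes were 2-fold lower, and in those titled HEK_120 to HEK_124, 4 of 17, with medians of -1.02 and -0.50, beside 9.1% and 11.2% of all genes lower in these sets.

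The region before the gene start is shown for 2 genes of each of these lists, because the factors named above bind known short motifs there. The motifs were TCACNCCA, the core of a sterol response element, and TGATGNAA, the core of an element bound by ATF4 with its partners, searched on both strands of the 250 bases before the start in RefSeq's GRCh38.p14 annotation. The first was in 3 of the 17 sterol genes with a sequence, the second in 3 of 14 ATF4-responsive genes. Over 35116 promoters taken singly the shares were 3.20% and 3.14%. A gene counted if any of its promoters held the motif, so the gene counts and the promoter shares are unlike measures. Each line gives the strand of the gene 5′ to 3′ with the motif in capitals. In MSMO1, a sterol demethylase with a ratio of -0.91 (chr4:165327419-165327668, plus strand), the motif begins 156 bases before the start, and in SREBF2, with a ratio of -0.88 (chr22:41832855-41833104, plus strand), 133 bases before it. In ASNS (chr7:97872409-97872658, minus strand) it begins 68 bases before the start, and in CHAC1 (chr15:40953221-40953470, plus strand) it lies 209 bases before and is read on the other strand, so the capitals show its reverse complement. A match describes the letters and is not evidence of binding in these cells.
MSMO1: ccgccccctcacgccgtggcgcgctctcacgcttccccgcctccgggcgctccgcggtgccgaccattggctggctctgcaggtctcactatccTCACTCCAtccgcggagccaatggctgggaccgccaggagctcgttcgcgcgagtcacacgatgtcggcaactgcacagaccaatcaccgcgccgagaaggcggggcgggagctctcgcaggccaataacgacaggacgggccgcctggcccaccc
SREBF2: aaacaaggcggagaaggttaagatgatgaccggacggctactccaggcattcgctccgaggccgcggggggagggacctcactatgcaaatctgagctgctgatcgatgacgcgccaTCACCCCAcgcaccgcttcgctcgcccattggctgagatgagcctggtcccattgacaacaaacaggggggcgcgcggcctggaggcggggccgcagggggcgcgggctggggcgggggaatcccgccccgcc
ASNS: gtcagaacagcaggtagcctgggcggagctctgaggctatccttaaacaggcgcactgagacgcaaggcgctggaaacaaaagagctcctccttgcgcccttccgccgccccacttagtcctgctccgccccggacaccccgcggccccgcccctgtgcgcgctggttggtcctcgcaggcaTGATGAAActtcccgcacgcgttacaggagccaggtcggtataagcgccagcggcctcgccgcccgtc
CHAC1: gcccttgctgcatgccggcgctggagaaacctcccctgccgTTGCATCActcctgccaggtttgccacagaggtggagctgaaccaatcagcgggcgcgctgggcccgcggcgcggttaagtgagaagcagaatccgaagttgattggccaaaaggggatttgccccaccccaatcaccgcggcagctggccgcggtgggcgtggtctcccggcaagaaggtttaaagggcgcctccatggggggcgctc

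Histone genes were high in some variant 2 cells and low in others. Replication-dependent histone mRNAs are made in S phase, and most end in a stem-loop and not in a poly(A) tail, so an oligo-dT primer reaches only the part that is polyadenylated. The summed level of the histone list was 78.9 to 5650 CPM in variant 2 cells (median 1931) and 167 to 843 CPM in Smart-Seq2 cells (median 389). Variant 2 cells 3, 5, 6 and 8 held 2999 to 5650 CPM, above all Smart-Seq2 cells, cell 4 held 862 CPM, just above the highest of them, and cells 1, 2 and 7 held 78.9 to 289 CPM, under the Smart-Seq2 median. The sums cover all 55 list genes found in the files, of which 9 had no read in any of the 15 cells and 46 were under the minimum level of 10 CPM. The 9 that passed it could do so through 1 protocol alone: 8 of them were at least 2-fold higher with variant 2 and 1 lower, beside 4.97% and 7.63% of all genes, and their median log2 ratio was 2.51. Without the minimum level the median of the list was 0.10, so the 2.51 describes these 9 genes and not the list. Histone genes have near-identical copies, so which member a read belongs to is uncertain.

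HIST1H4C, a histone H4 gene, was at 20.8 to 3790 CPM (median 1399) against 73.4 to 484 CPM (median 138), a ratio of 2.73. The linker histones HIST1H1C and HIST1H1E were at 0 to 229 CPM against 0 to 28.5 CPM, and at 0 to 442 CPM against 2.24 to 37.4 CPM, with ratios of 2.51 and 2.20, and HIST1H1E was at 1.24 without variant 2 cell 6. HIST1H1D, another linker histone, had the highest ratio of the 9, 4.87, with 0 to 126 CPM in variant 2 cells and at most 0.483 CPM in Smart-Seq2 cells. HIST1H2BK was the member that was lower, at 6.37 to 82.3 CPM against 19.8 to 220 CPM, a ratio of -1.04, and -0.73 without Smart-Seq2 cell 6. The 26 genes of the G1/S transition, all compared, had none past 2-fold and a median of 0.06, with sums of 3843 to 11342 CPM in variant 2 and 1472 to 9568 CPM in Smart-Seq2 cells. MCM7 and MCM3, subunits of the replicative helicase, had ratios of 0.07 and -0.10. The part of the cell cycle in the histone difference was not tested. Pools of 100 cells had histone sums of 1410 to 1700 CPM, variant 1 cells 204 to 3154 CPM (median 370) and variant 4 cells 287 to 4195 CPM (median 2529).

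Of 26 genes of G2 and mitosis, all compared, none was 2-fold higher with variant 2 and 2 were lower, a share close to the 7.63% of all genes, with a median of -0.48. The list sum was 29258 CPM in Smart-Seq2 cell 2, 4130 to 14760 CPM in the other Smart-Seq2 cells and 5491 to 9497 CPM in variant 2 cells. Without cell 2 the median was -0.18 and without Smart-Seq2 cell 1 it was -0.20, and with the median of the cells' CPM in place of the sum the list median was 0.06. KIF20A, a kinesin of the spindle midzone, had a ratio of -1.12, and -0.35 without cell 2. BUB1B and BUB1, kinases of the spindle checkpoint, were within 2-fold at 0.49 and -0.18.

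**Figure D5:**
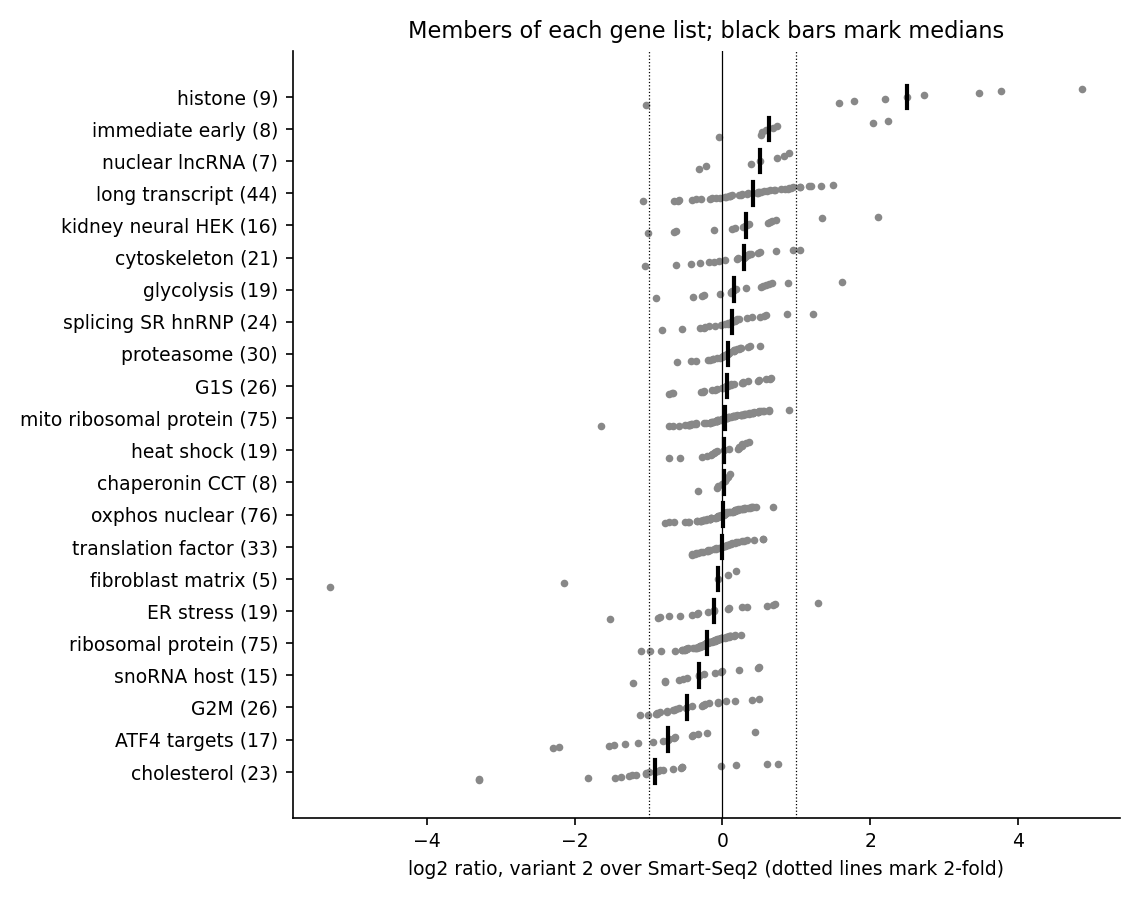
Each point is the log2 ratio of variant 2 over Smart-Seq2 for one compared gene of a list, with the number of compared genes in parentheses, black bars at list medians and dotted lines at 2-fold. The 9 histone genes that passed the minimum level lie furthest to the right (median 2.51) and sterol genes furthest to the left (median -0.91). The lists of oxidative phosphorylation, proteasome and chaperonin lie around 0, and ribosomal proteins slightly to the left of it (median -0.21).

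The abundant gene groups of the cell differed little between the protocols. The counts below stand beside 4.97% of all genes compared at least 2-fold higher with variant 2 and 7.63% lower. Of 76 compared nuclear genes of oxidative phosphorylation none was past 2-fold, with a median of 0.01, a lowest ratio of -0.78 in NDUFB1 and a highest of 0.68 in NDUFA8, both subunits of complex I. None of 33 translation factors, 8 subunits of the CCT chaperonin, 19 heat shock genes and 30 proteasome genes was past 2-fold, with medians from -0.00 to 0.07. Of 75 compared ribosomal proteins of 78 found in the files, 1 was past 2-fold and the median was -0.21, with 62 below 0 and 13 above. That gene was RPS2, a protein of the small subunit, at 74.1 to 223 CPM (median 121) against 194 to 343 CPM (median 296), a ratio of -1.10. RPL8 and RPS4X, the best-read members, were at -0.24 and -0.19. Among 75 mitochondrial ribosomal proteins 1 was lower and none higher, with a median of 0.04. Splicing factors had 1 of 24 higher and a median of 0.13, and glycolysis genes 1 of 19 higher and a median of 0.16. Both shares are close to that of all genes.

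Of nuclear long noncoding RNAs 7 of the 9 found in the files were compared, none was past 2-fold and the median was 0.50. The direction was not the same in both sets of variant 2 cells, with a median of 0.72 in the cells titled HEK_97 to HEK_100 and -0.27 in those titled HEK_120 to HEK_124. MALAT1, which collects at nuclear speckles, was at 1299 to 4661 CPM (median 2580) against 601 to 4678 CPM (median 1218), a ratio of 0.90. The highest Smart-Seq2 value was that of cell 2. Immediate early genes, which respond within minutes to stimuli, had 8 of 16 listed compared, 2 higher and none lower, beside 4.97% and 7.63% of all genes, with a median of 0.64. The other 8 were under the minimum level of 10 CPM. Those compared could pass it through 1 protocol alone, so the counts describe these 8 genes and not the list. In the cells titled HEK_97 to HEK_100, 3 of 8 were higher and none lower (median 0.78), and in those titled HEK_120 to HEK_124, 1 of 7 was higher and 2 were lower (median 0.62). ATF3, a stress-induced transcription factor, was at 19.0 to 404 CPM (median 129) against 0 to 68.0 CPM (median 22.8), a ratio of 2.04. EGR1, a zinc finger transcription factor, had a ratio of 2.25, and of 1.55 without variant 2 cell 8, with medians of 9.47 and 0.226 CPM. JUN, a subunit of AP-1, ran from 14.8 to 401 CPM and from 0 to 319 CPM, a ratio of 0.59 that was -0.23 without variant 2 cell 7 and 1.78 without Smart-Seq2 cell 7. With the cells titled HEK_97 to HEK_100 the JUN ratio was 1.44, and with those titled HEK_120 to HEK_124 it was -1.70. DUSP1, a phosphatase of MAP kinases, had a ratio of -0.05 that became 1.45 without Smart-Seq2 cell 7.

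Of the kidney and neural genes known from this line 16 of 22 were compared, 2 were higher, 1 was lower, beside 4.97% and 7.63% of all genes, and the median was 0.32. The median was 0.34 with the cells titled HEK_97 to HEK_100 and -0.01 with those titled HEK_120 to HEK_124. KRT8 and KRT18, the keratin pair of simple epithelia, had ratios of 2.11 and 1.35, KRT8 being at 4.13 to 279 CPM (median 102.01) against 1.11 to 70.8 CPM (median 21.8). KRT10 was lower at -1.02, VIM was at 0.73 and STMN1, which destabilises microtubules, at -0.11. Of 17 matrix genes of fibroblasts 5 were compared and 2 were lower.

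Among the single genes with the largest ratios, several rested on 1 or a few cells. Higher with variant 2, beside the histones, KRT8 and ATF3, were KLF10, a transcription factor induced by TGF-beta, at 13.7 to 155 CPM (median 66.5) against 0 to 33.4 CPM (median 8.70), a ratio of 2.29. CEP350, a centrosomal protein, was at 19.5 to 179 CPM (median 94.9) against 2.65 to 63.6 CPM (median 15.1), a ratio of 2.05. CUL3, the scaffold of a family of ubiquitin ligases, was at 2.19 to 160 CPM (median 64.01) against 0 to 36.1 CPM (median 11.5), a ratio of 2.04. The medians of these 3 genes were several-fold apart, and their ranges overlapped. SYTL5, an effector of Rab27, was read in 7 of 8 variant 2 cells and 3 of 7 Smart-Seq2 cells, with a ratio of 2.49. SHISA2, a transmembrane protein of the Shisa family, had a ratio of 2.38, and of 3.50 without Smart-Seq2 cell 6. ANKRD1, a target of YAP, had a ratio of 2.36, and of 3.84 without Smart-Seq2 cell 5.

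Lower with variant 2 were several regulators. MYC, the growth-promoting transcription factor, was at 11.3 to 277 CPM (median 34.8) against 12.9 to 1085 CPM (median 435), a ratio of -2.97 that was -3.68 without variant 2 cell 5. HES4, a repressor of the Notch pathway's HES family, was at 0.749 to 19.7 CPM (median 5.31) against 13.6 to 84.6 CPM (median 67.1), a ratio of -2.98. VAC14, the scaffold of the kinase complex that makes phosphatidylinositol 3,5-bisphosphate, was at 0 to 14.8 CPM (median 6.29) against 8.89 to 86.8 CPM (median 69.9), a ratio of -3.05. HES4 and VAC14 overlapped by few cells, with Smart-Seq2 cell 2 the lowest of its group in both. PGP, phosphoglycolate phosphatase, was at 0.562 to 27.7 CPM (median 11.2) against 11.7 to 155 CPM (median 86.7), a ratio of -2.75. SAC3D1 was at 0 to 10.3 CPM (median 4.67) against 0.378 to 101.8 CPM (median 50.7), a ratio of -3.16. Without Smart-Seq2 cell 2, PGP and SAC3D1 would not overlap between the protocols, the remaining Smart-Seq2 cells starting at 82.3 and 17.3 CPM. RHOB, a small GTPase of endosomes and actin, had a ratio of -2.57. LRRC8B, a subunit of volume-regulated anion channels, had one of -3.15, or -3.98 without variant 2 cell 8. Several of these low levels were not particular to variant 2. Summed variant 1 cells held 11.5 (HES4), 18.4 (VAC14), 24.2 (PGP), 12.8 (SAC3D1) and 41.6 CPM (RHOB). Summed Smart-Seq2 cells held 63.3, 60.2, 88.6, 51.2 and 202 CPM of the same genes. The means of pools of 100 cells were 23.8, 16.5, 49.3, 11.7 and 23.6 CPM. With variant 4 they were at 76.3, 73.7, 136, 88.3 and 44.3 CPM. MYC was at 298 CPM with variant 1 and 539 CPM with Smart-Seq2.

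Others of the largest differences belonged to single cells. CXCR4, the receptor of the chemokine CXCL12, had the lowest ratio, -4.31, with Smart-Seq2 cells 3 and 5 at 596 and 1146 CPM and a median of 15.2 against 7.46 CPM in variant 2 cells. Without cell 5 it was -3.19. CALCB, encoding a calcitonin gene-related peptide, had 1901 CPM in Smart-Seq2 cell 6 alone, and its ratio of -3.45 was -0.29 without it. HMOX1, heme oxygenase, had 1372 CPM in Smart-Seq2 cell 5, and its ratio of -2.57 turned to 1.15 without it. KLHL4, among the genes that varied most between variant 2 cells, had a ratio of 1.75, and of 4.22 without Smart-Seq2 cell 5, the cell with 157 CPM.

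A large part of all reads fell on CASC5 with both protocols, and on PDCD4 in 3 variant 2 cells. CASC5, a kinetochore scaffold, held 0.105% to 12.3% of the reads of variant 2 cells, with a median of 6.57%, and 1.19% to 12.4% of Smart-Seq2 cells, with a median of 5.27%. PDCD4, an inhibitor of translation initiation, held 0.0996% to 8.98% (median 0.698%) and 0.189% to 2.30% (median 0.765%). High PDCD4 was not particular to variant 2. Variant 1 cells held 0.0659% to 5.53% (median 0.690%), with 3.88%, 4.51% and 5.53% in variant 1 cells 1, 2 and 3. In pools of 100 cells CASC5 was at 48.8 ± 16.7 CPM and PDCD4 at 164 ± 34.6 CPM (SD, n = 3). The 3 highest PDCD4 shares were those of variant 2 cells 3, 4 and 5, titled HEK_122 to HEK_124, at 8.98%, 5.92% and 3.79%, and the same cells were highest for ANKRD30BL, at 942, 471 and 390 CPM. ANKRD30BL was at 1.03 to 20.4 CPM in the 4 cells titled HEK_97 to HEK_100 and at 11.7 to 71.3 CPM in Smart-Seq2 cells, so its ratio of 2.71 over all cells was -1.37 with the cells titled HEK_97 to HEK_100 and 3.66 with those titled HEK_120 to HEK_124.

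The labels do not say whether the title numbers mark separate preparations, and each range of numbers holds cells of a single protocol in this comparison, so a preparation and the protocol cannot be told apart. Within variant 2, 765 of 8929 genes (8.57%) were at least 2-fold higher in the cells titled HEK_97 to HEK_100 and 841 (9.42%) at least 2-fold lower than in those titled HEK_120 to HEK_124, shares larger than those between the protocols, with 4 cells a side. JUN was at 61.3 to 401 CPM in the first 4 cells and 14.8 to 52.5 CPM in the others. COQ10B, a mitochondrial protein of coenzyme Q function, was at 45.8 to 61.6 CPM against 0 to 13.2 CPM, with the largest ratio, 3.55, of genes at 50 CPM or more in either set that did not overlap. On the other side ANKRD30BL had -5.03 and MAN1A1, a mannosidase of the Golgi, -3.64, at 0.134 to 12.2 CPM against 15.4 to 100 CPM.

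Detection and spread differed little between the protocols when all cells were used. Genes at 10 to 30 CPM in pools had a read, at 5 M reads, in a median of 91.8% of genes per variant 2 cell and 91.9% per Smart-Seq2 cell, and genes at 1 to 3 CPM in 48.3% and 47.7%. The median SD of log2(CPM + 1) between cells was 1.76 and 1.75 for genes at 10 to 30 CPM, 1.11 and 1.10 at 30 to 100 CPM, and 0.66 and 0.75 at 100 to 300 CPM. With single cells left out, the difference at 30 to 100 CPM, variant 2 minus Smart-Seq2, ran from -0.23 to 0.32. That of median genes detected ran from -14 to 258.5. Of 23571 symbols, 7183 had a read in all variant 2 cells, 7224 in all Smart-Seq2 cells and 5971 in all 15. A single gene, the pseudogene TDGF1P3, had a read in all 7 Smart-Seq2 cells, at 0.245 to 3.33 CPM, and in none of the variant 2 cells, whose 64.2 M reads together allow up to 0.0467 CPM, the level of 3 reads, and no gene showed the reverse. Its absence was not particular to variant 2. TDGF1P3 was also at 0 CPM in variant 1 cells and in the pools of 100, 50 and 10 cells, which are labelled Smart-Seq2. With variant 4 it was at 0.0267 CPM. The genes that varied most between variant 2 cells included ARRDC3, at 519 CPM in cell 3 and a median of 3.60 CPM, and SNX4, a sorting nexin, with no read in cells 2 and 3 and 81.8 to 160 CPM in the other 6.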

How the data were processed

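Libraries of polyadenylated RNA from 8 variant 2 and 7 Smart-Seq2 single HEK293T cells were used, with variant 1, variant 4 and pools of cells as side values. Per the file headers, each deposited table gives the count of reads per gene and RPKM with RefSeq IDs; the authors made the RPKM values from these reads, and they were used only as an alternative. The submitters' processing notes list STAR and the builds hg19, GRCh37 and mm10. How reads were counted, with which strand setting and with which rule for several matches, is not given in the sources used here, so reads of overlapping or antisense genes cannot be separated.

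The 24249 entries of a file were summed to 23571 symbols, and repeated symbols held at most 0.100% of a cell's reads. Chi-square per gene between any 2 cells of a protocol averaged at least 116 for variant 2 and 160 for Smart-Seq2, so no library was a copy of another. Counts were summed over the cells of a protocol and given as CPM, with exact 95% Poisson intervals from scipy 1.17.1. Ratios are log2 after adding 1 CPM, which understates the ratio of low genes. Genes with a mean of 10 CPM over both groups were compared, and 2-fold was the threshold. Gene detection used cells thinned once to 5 M reads (M, 1000000) without replacement. With 1 sample a protocol no test was made. Transcript length and GC content come from GENCODE transcripts matched by RefSeq ID or symbol, available for 99.6% of the genes compared, and no coordinates of the files' build are printed.

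Named genes were, for each direction, the 12 with the largest ratio that had at least 50 CPM in the higher group and a read in all its cells or in all except 1, the 8 with separate ranges and the largest gap in each direction, the 10 with the largest SD in variant 2 cells, genes read in all cells of one protocol and none of the other, and the best-read and most extreme members of described lists. List members beyond these are named to show how a list spread. Some members of the sterol list are part of its counts and sums and are not reported singly here. The groups compared, the 27 gene lists and the rules were chosen with earlier results of these data known. Alternatives used TMM factors from edgeR 4.0.16 and size factors from DESeq2 1.42.0 in R 4.3.3, other filters and other pseudocounts, and left out each cell in turn. The code was tested on simulated data with known ratios.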

Additional observations from a re-analysis of the deposited data

Results flagged for a closer look

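In 216 sets of single-cell values, 1 for each protocol and each depth measure, list sum or named gene, the highest or lowest cell was checked for a gap to the rest beyond Dixon's 95% critical value, and 30 were so marked. Chance marks about 1 in 20 sets, and sets that share cells are not independent.

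Of the 30, 17 belonged to Smart-Seq2 cell 2, the cell with the fewest genes of its group. It was low for the summed levels of mitochondrial ribosomal proteins (6102 CPM), small nucleolar RNA hosts (424 CPM), translation factors (6920 CPM) and G1/S genes (1472 CPM). It was low for PGP (11.7 CPM), SAC3D1 (0.378 CPM), RHOB (0.568 CPM), NDUFA8 (82.7 CPM), MIR17HG (14 CPM), MCM7 (201 CPM), MCM3 (2.27 CPM), CDT1 (5.87 CPM), SRRM2 (3.78 CPM) and KRT10 (8.32 CPM), and had 0 CPM of ATF3 and 0 CPM of LINC00657. It was high for PNPLA2, at 303 CPM. Smart-Seq2 cell 5 was high for ANKRD1 (87.9 CPM) and HMOX1 (1372 CPM) and low for ERRFI1 (0.540 CPM). Cell 1 was high for HIST1H1D (0.483 CPM) and cell 6 for the endothelial list (1.47 CPM), both against medians of 0.

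Among variant 2 cells, cell 3, also the one with the fewest genes, was low for splicing factors (6382 CPM), PNPLA2 (10.9 CPM) and ATF5 (0.749 CPM) and high for glycolysis genes (34377 CPM). Cell 8 was low for translation factors (9036 CPM) and IDI1 (9.64 CPM), cell 6 for INSIG1 (3.54 CPM) and cell 2 for BUB1B (130 CPM).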

How the results depend on the processing

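No paired analysis was possible because the labels give the cells no replicate numbers that the protocols share and no test was made. Leaving out each cell in turn gave 429 to 561 genes at least 2-fold higher, 657 to 824 lower, and list medians of -1.001 to -0.85 (sterol genes), -1.02 to -0.56 (ATF4-responsive), 2.10 to 2.79 (histones), 0.27 to 0.50 (long transcripts), -0.63 to -0.18 (G2 and mitosis), -0.28 to -0.14 (ribosomal proteins), -0.03 to 0.03 (oxidative phosphorylation) and -0.06 to -0.02 (all genes). It gave differences between extreme groups of genes of -0.20 to -0.05 (GC content) and 0.11 to 0.18 (length), between protocols of -14 to 258.5 in median genes detected, 1.32 to 3.36 percentage points in the share of the top 100 genes, and -0.23 to 0.32 in the median SD at 30 to 100 CPM. Counts of genes higher and lower were 1227 and 1512 with a filter of 1 CPM, 1407 and 1689 with none, 74 and 157 with one of 50 CPM, and 169 and 388 with RPKM, where 6324 genes were compared. Without a filter the histone median was 0.10, most members having few reads. ARRDC3 turned to -0.46 with the median of cells, and its ratio ran from -0.41 (without variant 2 cell 3) to 1.73 over the cells left out, while HMOX1 ran from -3.86 to 1.15 (without Smart-Seq2 cell 5). With TMM factors the counts were 492 and 614, and with DESeq2 factors 451 and 518. Of alternatives chosen after seeing the data, cells titled HEK_120 to HEK_124 gave 754 genes higher, and cells titled HEK_97 to HEK_100 gave a median SD difference of -0.34 and reversed ANKRD30BL (-1.37), ARRDC3 (-3.17) and ERRFI1 (-0.20). Without the cell with the fewest genes in each group ARRDC3 was -0.51, sterol genes had a median of -1.03 and histones 2.27, and without CASC5 and PDCD4 in the totals the counts were 528 and 653. The causes were not tested. Depth limits genes under 10 CPM, which are read in part of the cells.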
